A study of Mus musculus with 24 samples.

Results

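Samples of the medial motor column (MMC) of the mouse spinal cord were compared between SMA mice and wild-type (WT) mice. They are the arrays whose sample titles name the P4 spinal cord MMC, 3 SMA and 3 WT, and they make up 6 of the 24 arrays of the series. The other 18 arrays hold SMA and WT samples of the raphe, the dorsal root ganglia (DRG) and the lateral motor column (LMC), 3 arrays in each of 8 groups in all. Every array was a single-colour Illumina bead array labelled with Cy3. All mice, of every group, were of strain FVB and at postnatal day 4. The label SMA is taken to mean spinal muscular atrophy. The allele of the SMA mice, the way the column was collected and the number of animals behind an array are not given in the sources used here. The design text calls the 3 samples of a group biological replicates. Per the labels' protocols, total RNA came from a nanoprep kit and was amplified as cDNA by a method meant for picogram amounts.

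The MMC holds the motor neurons that supply the muscles of the trunk and back, and the LMC those of the limbs. Spinal muscular atrophy is a disease of motor neurons caused by too little of the survival motor neuron protein SMN, which helps to assemble the small nuclear ribonucleoproteins of the spliceosome. In mouse models of the disease, medial motor neurons are among those lost early. The transcription factor p53, which drives genes of cell cycle arrest, DNA repair and cell death, has been linked to that loss in such models.

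Motor neuron genes were present in the MMC samples. Chat and the transporter genes Slc18a3 and Slc5a7, which make and handle acetylcholine, were above background on all 6 arrays, as were the motor neuron factors Isl1 and Mnx1 and the filament gene Prph. Lhx3, a factor of medial motor neurons, was above background on all 6 arrays with a mean log2 level of 6.26 ± 0.313 (SD, n = 3) in WT MMC against 5.45 ± 0.0809 in WT LMC. Its relative Lhx4 was above background on 0 WT and 1 SMA array. Aldh1a2, a retinoic acid enzyme gene of lateral motor neurons, stood at 5.58 ± 0.902 in WT MMC against 9.37 ± 0.516 in WT LMC. The samples were not motor neurons alone, since the 16 astrocyte markers tested were also measured, with levels that summed on the linear scale to between 14978 and 19080 on WT arrays and between 15159 and 19052 on SMA arrays.

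The 3 WT arrays held positions A to C and the 3 SMA arrays positions D to F of 1 chip, so that chip position and genotype cannot be told apart. Each tissue lay on a chip of its own, so that tissue and chip cannot be told apart either. Between 38.2 and 44.0% of the probes were above background on the WT arrays and between 39.1 and 43.3% on the SMA arrays. A probe counts as above background where the deposited detection p is under 0.05. Levels below are log2 intensities after background correction, an added offset of 16 and quantile normalization, on which probes without signal lie at the low end and a difference of 1 is a 2-fold change. Each array's number follows its sample title.

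Replicates of the MMC varied more than those of most other groups. Over the 8770 genes tested, the median SD across the 3 arrays of a group was 0.486 in WT MMC and 0.365 in SMA MMC, against 0.231 to 0.461 in the other groups. An SD over 1 was seen in 14.5% of genes in WT MMC and 8.76% in SMA MMC. Pearson's correlation between arrays, taken across genes, ran from 0.816 to 0.903 among the WT arrays and from 0.893 to 0.914 among the SMA arrays. Pairs of arrays of different genotype had correlations from 0.817 to 0.924, so the 2 genotypes overlapped in this measure. In the model used here, the variance of the MMC arrays was estimated at 1.51 times the average, against 1.25 for LMC, 0.844 for the raphe and 0.629 for DRG.

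The spread depended on the level of a gene. Between log2 levels of 6 and 7 the median SD was 0.680 in WT and 0.557 in SMA, and above 12 it was 0.146 and 0.0861. Below 6, close to background, it was 0.460 and 0.388. Of the 1269 genes with an SD over 1 in WT, WT 3 was the array farthest from the other two in 669, WT 1 in 454 and WT 2 in 146. In SMA the corresponding counts among 768 genes were 337 for SMA 1, 202 for SMA 2 and 229 for SMA 3. Cdh1, which encodes E-cadherin, had the largest SD of all, at 5.15, 6.91 and 11.28 on the 3 WT arrays. Ank2, the gene of a membrane scaffold of axons, stood at 11.71, 10.75 and 6.43. WT 3 was the high array for the first of these genes and the low one for the second, while the SMA arrays of both lay close together. No array was left out, and results that rest on 1 array are named beside their values.

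Smn1, the mouse gene of the SMN protein on chromosome 13, checks the genotype labels. It stood at 9.79, 9.60 and 10.81 in WT and at 4.52, 4.57 and 4.43 in SMA. All 3 WT arrays were far above background and none of the SMA arrays was. In SMA the level was lower by at least 26.8-fold (adjusted p = 8.02e-09). Here and below, "at least" compares the mean level of the group with signal to a floor. On each array of the group without signal, the floor is either the dimmest detected probe or the gene itself, whichever is brighter. Smn1 passed under all 22 alternative settings that could test it. For the other genes, in bulk samples such as these, fewer cells of a type and less RNA per cell cannot be told apart.

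Across all genes the comparison of SMA with WT called few. Genes entered the test if all 3 arrays of either genotype had a detection p under 0.05, and 7133 of the 8770 genes tested were above background on all 6 arrays. Of these 8770 genes, 12 passed an adjusted p of 0.05, which is 0.137%. In SMA, 8 were higher (0.0912%) and 4 lower (0.0456%), and the smallest difference among them was 1.83 on the log2 scale. At an unadjusted p under 0.05 there were 790 genes (9.01%), 420 higher (4.79%) and 370 lower (4.22%). The 3 SMA values lay wholly above the WT values in 744 genes (8.48%) and wholly below them in 541 (6.17%). The median difference over all genes was 0.06, the median of its absolute size 0.333 and the median standard error 0.467. In 5321 genes (60.7%) the difference was smaller than its own standard error.

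The count depends on how the spread is modelled. With 1 common spread for all 24 arrays, 142 genes passed (1.62%), 72 higher (0.821%) and 70 lower (0.798%), and these included all 12. With the 6 MMC arrays alone, 5 genes passed (0.057%): Smn1, Padi1, Gtse1, Cdkn1a and Chodl. Leaving out 1 array gave 21 genes without WT 1, 15 without WT 2, 28 without WT 3, 22 without SMA 1, 19 without SMA 2 and 13 without SMA 3. Between 7 and 11 of the 12 were among them. The detection rule was applied anew to the arrays left, so these fits tested 9012 to 9417 genes and differ from the main fit in the filter too. The authors' normalized values gave 15 genes higher and 4 lower, and median scaling 7 higher and 2 lower.

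**Figure D1:**
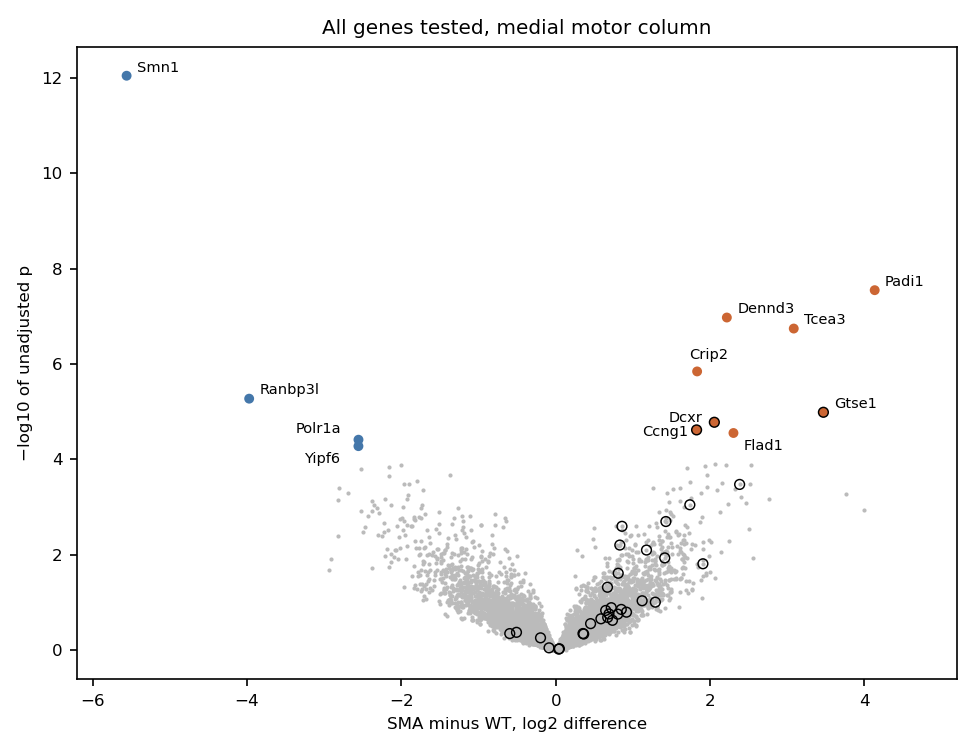
Log2 difference of SMA minus WT (x axis) against −log10 of the unadjusted p (y axis) for the 8770 genes tested in the MMC, with the 12 genes past the threshold coloured by direction and named, and the 33 p53 targets tested circled. Smn1 stands apart at −5.56, and 29 of the 33 circled genes lie right of 0.

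The genes that rose included 3 p53 targets, Gtse1, Ccng1 and Dcxr. Gtse1, on chromosome 15, encodes a protein of dividing cells that binds microtubules and p53. Its levels were 6.32, 6.49 and 7.08 in WT and 10.18, 10.11 and 10.01 in SMA. The SMA arrays lay close together and far above the highest WT array. It rose by 3.47 (SE 0.620, adjusted p = 0.0129), and its other probes differed by 0.96 and 2.29. Without WT 2, SMA 2 or SMA 3 it no longer passed, with an adjusted p of up to 0.0691.

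Ccng1, on chromosome 11, encodes cyclin G1, which acts in the feedback on p53. It stood at 9.65, 8.84 and 9.38 in WT and at 10.59, 11.32 and 11.44 in SMA. Every SMA array was above every WT array, with SMA 1 the lowest of its group. The rise was 1.83 (SE 0.348, adjusted p = 0.0235), and its other probes showed 1.40 and 2.47. Dcxr, also on chromosome 11, encodes a reductase of sugars and dicarbonyls. Its levels were 4.43, 4.57 and 5.25 in WT, where no array was above background, and 6.67, 6.87 and 6.88 in SMA, where all were. It was at least 2.89-fold higher (adjusted p = 0.0182). Ccng1 no longer passed without WT 2, SMA 2 or SMA 3 (adjusted p up to 0.139), and neither did Dcxr without WT 1, WT 2, SMA 2 or SMA 3 (up to 0.085).

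The other genes that rose were Padi1, Tcea3, Dennd3, Crip2 and Flad1. Padi1, on chromosome 4, encodes an enzyme that turns arginine in proteins into citrulline and is best known from skin. It stood at 5.15, 6.88 and 5.55 in WT and at 9.60, 10.26 and 10.12 in SMA. This was the largest rise of all, 4.13 (SE 0.508, adjusted p = 0.000125), with 2 of the 3 WT arrays above background, and Padi1 stayed past the threshold whichever of the 6 arrays was left out. Tcea3, on chromosome 4, belongs to the family of transcription elongation factor TFIIS. Its WT levels were 4.59, 4.74 and 4.60, all at background, and its SMA levels 8.46, 6.55 and 8.17. SMA 2 lay between the other SMA arrays and WT, and Tcea3 was at least 5.48-fold higher in SMA (adjusted p = 0.000397). The model draws the spread of a gene from all tissues, and Tcea3 was above background on 0 LMC, 0 DRG and 4 raphe arrays. Its SE of 0.422 thus rests in part on arrays without signal. Within the MMC its SD was 0.0857 in WT and 1.03 in SMA.

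Dennd3, on chromosome 15, encodes an activator of a Rab GTPase of membrane traffic. It was at background in WT, at 4.80, 4.47 and 4.43, and stood at 6.86, 6.05 and 7.44 in SMA. All SMA arrays were above background, and the level was at least 2.85-fold higher (adjusted p = 0.000311). Its SE of 0.294, too, rests in part on arrays without signal, with 0 LMC, 0 DRG and 1 raphe array above background. Within the MMC the SD of Dennd3 was 0.202 in WT and 0.698 in SMA. With the MMC arrays alone its adjusted p was 0.113. Crip2, on chromosome 12, encodes a small LIM domain protein. It stood at 8.18, 8.76 and 8.69 in WT and at 10.48, 10.51 and 10.13 in SMA. The groups were well apart, and Crip2 rose by 1.83 (SE 0.286, adjusted p = 0.00251).

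Flad1, on chromosome 3, encodes the enzyme that makes the cofactor FAD. It stood at 5.18, 5.85 and 5.33 in WT, with 2 arrays above background, and at 8.32, 8.13 and 6.83 in SMA. The rise was 2.30 (SE 0.444, adjusted p = 0.0245). SMA 3 was the low array of its group, and the call was lost without WT 1, SMA 1 or SMA 2 (adjusted p up to 0.146). With the 6 MMC arrays alone, Tcea3, Dennd3, Crip2 and Flad1 had adjusted p values of 0.111, 0.113, 0.0823 and 0.255.

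Besides Smn1, 3 genes fell: Ranbp3l, Polr1a and Yipf6. Ranbp3l, on chromosome 15, is a relative of a cofactor of nuclear export and was listed here among markers of the meninges. Its levels were 8.04, 7.74 and 10.30 in WT and 4.53, 4.88 and 4.75 in SMA. All SMA arrays were at background, and WT 3 stood far above the other WT arrays. Ranbp3l was at least 10.3-fold lower (adjusted p = 0.00779), and it still passed without WT 3 or any other single array (adjusted p up to 0.0402).

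Polr1a, on chromosome 6, encodes the largest subunit of RNA polymerase I, which transcribes ribosomal RNA. It stood at 7.14, 8.31 and 7.50 in WT and at 5.01, 5.05 and 5.22 in SMA, where no array was above background. In SMA it was at least 5.01-fold lower (adjusted p = 0.0308). This fall was seen with 1 probe: the other 2 probes of Polr1a differed by −0.35 and −0.17, and the mean of its detected probes did not pass. The probe with the difference of −0.35 was the brightest in the MMC itself, and with it Polr1a had an adjusted p of 0.924. Polr1a also lost its call without WT 2 or without any one of the SMA arrays (adjusted p up to 0.129). Yipf6, on chromosome X, encodes a membrane protein of the Golgi. Its levels were 8.88, 9.27 and 10.45 in WT and 5.74, 7.67 and 7.51 in SMA, so that the groups did not overlap but each had 1 distant array. It fell by 2.56 (SE 0.518, adjusted p = 0.0385), its other probes differed by −1.35 and −0.41, and the call was lost without WT 2, WT 3, SMA 1 or SMA 3 (adjusted p up to 0.219).

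**Figure D2:**
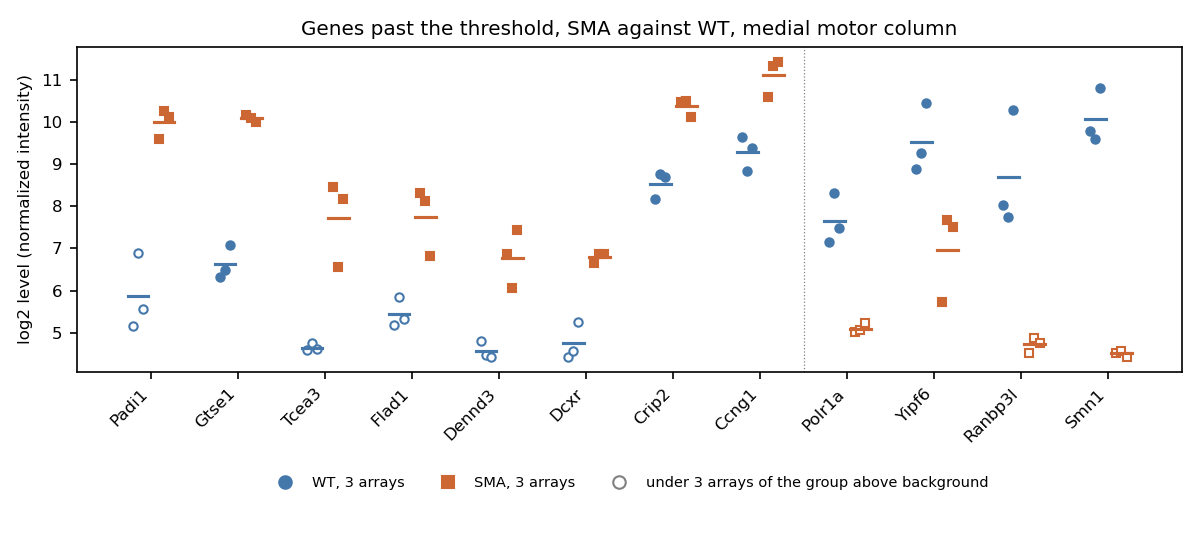
Log2 level on each of the 3 WT (circles) and 3 SMA (squares) arrays for the 12 genes past the threshold, with bars at the group means and open symbols where fewer than 3 arrays of the group were above background. The 3 SMA points of each gene lie on 1 side of its WT points, and the Ranbp3l point of WT 3, at 10.30, stands away from its group.

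Further genes separated the genotypes without passing the test. Among those above background on all 6 arrays, the ones of smallest p with higher levels in SMA were 4933434E20Rik, Car12, Lrrc14, Fos, Perp, Cpne2, Hsd17b10, Eola1 and Slc27a3, with differences from 1.44 to 2.40 and adjusted p values from 0.0687 to 0.123. Car12, a carbonic anhydrase gene, stood at 6.52, 6.83 and 6.09 in WT and at 8.47, 8.52 and 8.25 in SMA, and its other probe differed by 1.39. Fos, the gene of an immediate early transcription factor, stood at 5.15, 6.01 and 6.90 in WT and at 8.25, 7.55 and 8.73 in SMA. The arrays of both genes lay apart by genotype. The other immediate early genes tested did not follow Fos: Jun, Egr1, Dusp1 and Btg2 had differences of −0.39, −0.34, −0.08 and −0.09. For 4933434E20Rik the 3 other probes disagreed, from −1.56 to 2.10.

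On the lower side the genes chosen in this way were Plekhd1, Syndig1l, Adam22, Dph3, Map1a, Syt9, Cntn6, Ap1ar, Dgkk, Nckap1 and Rsrc1, with differences from −2.32 to −1.27 and adjusted p values from 0.0687 to 0.165. Several act in neurons. Map1a encodes a microtubule-associated protein of neurons, Cntn6 an adhesion protein of the contactin family, Adam22 a membrane receptor at synapses and Nckap1 a part of the complex that starts actin branching. Map1a stood at 8.93, 8.51 and 9.77 in WT and at 8.18, 7.12 and 6.17 in SMA. Cntn6 stood at 8.66, 8.05 and 9.33 in WT and at 6.89, 6.78 and 6.43 in SMA. Both had their lowest level on SMA 3 and their highest on WT 3. Other probes of 3 of these genes pointed upwards: that of Syndig1l differed by 0.36, those of Dph3 by 0.09 and 0.39, and 1 of the 2 of Dgkk by 0.32.

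Targets of p53 lay higher in SMA as a group. Of 46 listed targets, 41 were on the array and 33 were tested. A total of 29 had differences above 0, and the median was 0.80, where 54.6% of all genes lay above 0 with a median of 0.06. The 3 that passed were Gtse1, Ccng1 and Dcxr, and none passed in the other direction. With the 6 MMC arrays alone Gtse1 and Cdkn1a passed, while Ccng1 and Dcxr did not, each with an adjusted p of 0.111. Dcxr, with 0 WT arrays above background, and Fas entered the test through SMA alone, so their direction was largely set by that filter. The 3 SMA arrays lay wholly above the WT arrays for 16 targets and wholly below them for 0, where the shares over all genes were 8.48% and 6.17%. On single arrays, the median of the 33 targets relative to their WT means was −0.17, 0.03 and 0.07 in WT and 0.78, 0.71 and 0.99 in SMA, and on each SMA array 29 targets were above their WT mean. Their levels summed on the linear scale to between 19153 and 20003 on WT arrays and between 33866 and 38578 on SMA arrays, and without Cdkn1a, the gene with the largest part in that difference, to between 17220 and 18771 and between 28994 and 33226. The number of targets that passed was 2 without WT 1 and 0 without WT 2, SMA 2 or SMA 3, while the number above 0 stayed between 27 and 30 and the median between 0.75 and 0.88.

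**Figure D3:**
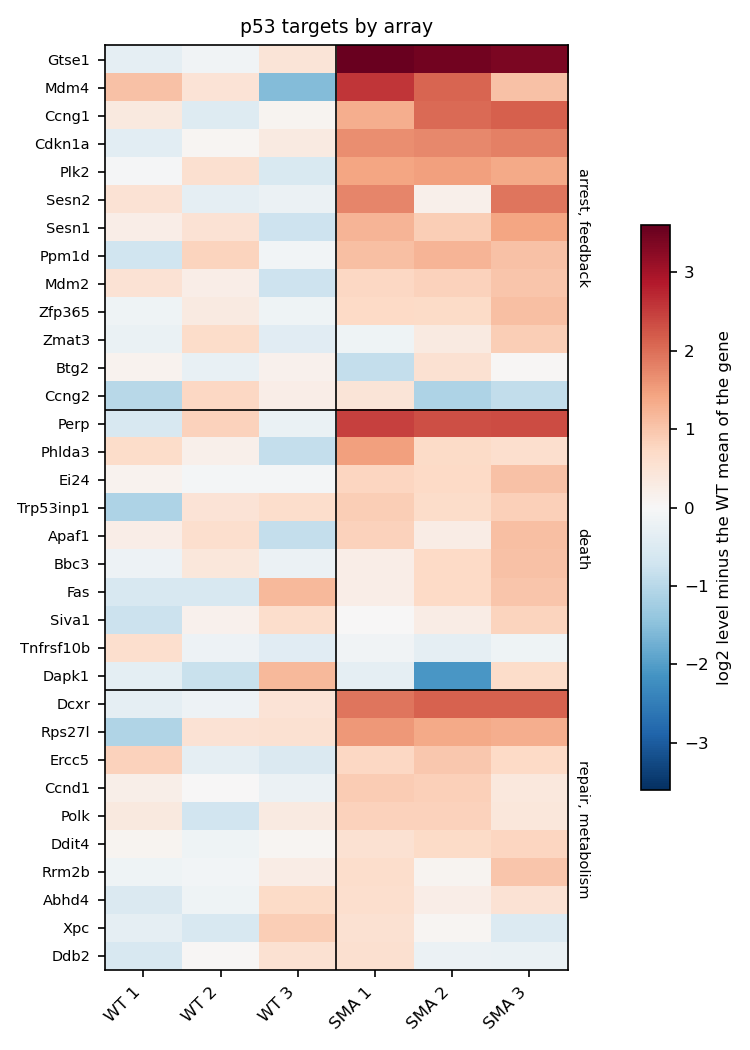
Log2 level minus the WT mean of the gene (colour) for the 33 p53 targets tested, in rows grouped by role, on the 3 WT and 3 SMA arrays in columns. The SMA columns are red for 29 of the 33 genes each, with Gtse1 the darkest at 3.38 to 3.55.

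The targets that stop the cell cycle or feed back on p53 had the highest median, 1.18 over 13 genes, 11 of them above 0. Cdkn1a, which encodes the cell cycle inhibitor p21, stood at 10.19, 10.64 and 10.92 in WT and at 12.25, 12.33 and 12.39 in SMA. Its SMA arrays lay close together and well above the highest WT array. The difference of 1.74 had an adjusted p of 0.135 in the model used here and of 0.0103 with the MMC arrays alone, and its other probes showed 1.59 and 2.65. Mdm2, the ubiquitin ligase that restrains p53, stood at 11.01, 10.75 and 9.75 in WT and at 11.25, 11.34 and 11.49 in SMA. The groups were separate with WT 3 the low array, and the difference of 0.86 (adjusted p = 0.196) was 0.48 without WT 3. Plk2, a stress kinase gene, differed by 1.43 (adjusted p = 0.183) and Sesn1, a regulator of nutrient signalling, by 1.18 (adjusted p = 0.300). Ccng2 and Btg2 lay below 0, at −0.51 and −0.09.

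Of the 10 p53 targets that act in cell death, 8 lay above 0, with a median of 0.70. Perp, which encodes a membrane protein of p53-driven apoptosis, stood at 6.13, 7.56 and 6.47 in WT and at 9.18, 9.05 and 9.08 in SMA. The SMA arrays were nearly equal and all above WT, and the difference of 2.38 had an adjusted p of 0.0976. Bbc3, the gene of the death protein PUMA, differed by 0.67 (adjusted p = 0.553) with overlapping groups. Ei24 differed by 0.85 and Fas, a death receptor gene above background on 1 WT and 3 SMA arrays, by 0.65. The median of this list was 0.46 without WT 1. Genes of the intrinsic apoptosis machinery outside the p53 list gave another picture: 4 of 9 lay above 0, the median was −0.01, and none passed. Casp9 differed by 0.37 and Bcl2l1, which encodes the survival protein BCL-XL, by −1.04 (adjusted p = 0.722).

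All 10 p53 targets of repair and metabolism lay above 0, with a median of 0.68, though Dcxr had entered the test through SMA alone. Beside Dcxr, the ribosomal protein gene Rps27l stood at 8.73, 10.32 and 10.36 in WT and at 11.36, 11.17 and 11.11 in SMA, with WT 1 the low array. Its difference was 1.41 (adjusted p = 0.342), and it was 0.88 without WT 1. Ercc5, an endonuclease gene of excision repair, differed by 0.81 and Ccnd1, the gene of cyclin D1, by 0.72. The repair genes Xpc and Ddb2 were both close to 0, at 0.05 and 0.04.

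Promoter sequence was looked at because these targets moved together. RefSeq windows of the mouse build GRCm38.p6 cover 250 bases before each start, and a promoter was given for 25 of the 33 targets. The p53 decamer, the motif to which a pair of p53 molecules binds and whose consensus is its own reverse complement, was found in 9 of the 25 (36%), against 7.18% of the 7105 tested genes with a promoter and 8.20% of all genes with one. Since the list was made of known targets, this share is a description of the list. A pair of decamers at most 1 base apart was found in 0 of these windows. The search took exact matches only, and such a pair was found in 0 of the 7105 tested genes and 3 of all genes with a promoter (0.0111%). Its absence therefore does not set the targets apart. The stretches below are examples from 5 of these 9 targets, each with a decamer in capitals. Further stretches with a decamer, from the other targets and from Cdkn1a and Rps27l, are not shown. They run 5′ to 3′ on the strand of the gene.
Ccng1, chr11:40755442-40755491, minus strand: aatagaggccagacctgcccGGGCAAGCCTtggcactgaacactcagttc
Cdkn1a, chr17:29090908-29090957, plus strand: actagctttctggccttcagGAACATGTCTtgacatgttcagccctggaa
Mdm2, chr10:117710915-117710964, minus strand: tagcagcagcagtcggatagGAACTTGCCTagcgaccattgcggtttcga
Sesn1, chr10:41887246-41887295, plus strand: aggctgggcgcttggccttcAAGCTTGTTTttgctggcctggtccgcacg
Rps27l, chr9:66946183-66946232, plus strand: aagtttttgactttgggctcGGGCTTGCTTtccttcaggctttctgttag
In Ccng1 the decamer lies 185 to 176 bases before the start, in Cdkn1a 51 to 42 and in Mdm2 186 to 177. In Sesn1 it lies 173 to 164 bases before the start and in Rps27l 210 to 201. A match of letters does not show that p53 binds there.

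Markers of motor neurons as a class stayed close to 0. Of the 12 tested, 8 lay above 0, the median was 0.06 and none passed. Chat stood at 6.34, 8.24 and 6.89 in WT and at 6.99, 7.31 and 7.29 in SMA. The groups overlapped fully, the difference was 0.04 (SE 0.526, adjusted p = 0.992), and its sign changed under several settings. Slc18a3 differed by 0.08, Slc5a7 by 0.39, Prph by −0.16 and Mnx1 by −0.10. Gfra1, a receptor gene for the growth factor GDNF, stood at 7.04, 6.93 and 8.08 in WT and at 5.63, 6.73 and 5.70 in SMA, a difference of −1.33 (adjusted p = 0.473). The summed linear level of the 12 markers was 11237 to 12952 in WT and 11415 to 13124 in SMA.

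Genes that mark subtypes of motor neurons were split. Of 10 tested, 7 lay below 0 and none passed, and the median was −0.10. Mmp9, a protease gene of fast motor neurons that are vulnerable in disease, stood at 7.15, 8.60 and 8.23 in WT and at 6.53, 5.64 and 5.34 in SMA. Chodl, a marker of fast motor neurons, stood at 11.70, 11.96 and 11.85 in WT and at 10.20, 10.48 and 10.80 in SMA. For both genes all SMA arrays were below all WT arrays. Mmp9, however, was not above background on every MMC array, and its SMA levels of 5.64 and 5.34 were close to background. It entered the test through WT alone, so its direction was in part set by that filter. The difference of Mmp9 was −2.16 (adjusted p = 0.0687), and that of Chodl was −1.34, with an adjusted p of 0.196 in the model used here, 0.0351 with the MMC arrays alone and 0.0107 with the 12 motor column arrays alone. Calb2, which encodes calretinin, differed by −0.64. Esrrg and Esrrb, receptor genes linked to slow and gamma motor neurons, differed by 0.10 and −0.06. The summed linear level of the 10 subtype genes was 10472 to 12481 in WT and 8455 to 8657 in SMA. Without Chodl it was 7141 to 8496 in WT and 6719 to 7275 in SMA, so the groups overlapped in the other 9 genes.

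Neurofilament genes, which give motor axons their calibre, had differences below 0 of moderate size. Nefl stood at 12.60, 12.95 and 12.65 in WT and at 12.04, 12.27 and 12.16 in SMA, and Nefm at 14.30, 13.83 and 14.11 against 13.41, 13.72 and 13.39. The groups of both genes were apart, with differences of −0.58 and −0.58 and adjusted p values of 0.479 and 0.598. The wider list of filament and cytoskeleton genes had 11 of 19 below 0, a median of −0.14 and none past the threshold. Genes of the synaptic vesicle cycle were split evenly, 10 of 20 on each side with a median of 0.00. Receptors for glutamate, GABA and glycine lay below 0 in 10 of 13, with a median of −0.29 that was 0.02 without WT 1, and none passed.

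Marker lists of other cells are given as measured, and their part in the differences above was not tested. Red blood cell genes had differences below 0 in 4 of 4 tested, with a median of −1.33 and none past the threshold. Their summed linear level was 2912 to 9043 in WT and 1096 to 2792 in SMA, with no overlap but a wide range in WT, and without Hbb-bs the groups overlapped, at 1073 to 3478 and 491 to 1146. Hbb-bs, a globin gene with near-identical copies, stood at 10.84, 11.31 and 12.44 in WT and at 10.68, 10.23 and 9.24 in SMA. Of 8 markers of oligodendrocyte precursors, 6 lay below 0 with a median of −0.29, and none passed. Pdgfra, the growth factor receptor gene that defines these cells, stood at 10.72, 10.29 and 10.89 in WT and at 9.79, 9.59 and 9.65 in SMA. All SMA arrays were below WT, by 0.96 on average (adjusted p = 0.357). The summed linear level of the list was 4213 to 4501 in WT and 2717 to 2972 in SMA, while the median of the list moved between −0.05 without WT 2 and −0.63 without WT 3.

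Mature oligodendrocyte markers lay below 0 in 7 of 11, with a median of −0.17, and astrocyte markers in 8 of 16, with a median of 0.03. Bbox1, a carnitine enzyme gene of astrocytes, stood at 5.97, 6.92 and 10.58 in WT and at 4.57, 5.43 and 5.02 in SMA. WT 3 was the high array, and the difference of −2.82 (adjusted p = 0.124) was −1.44 without it. Microglia and macrophage markers lay above 0 in 7 of 9 with a median of 0.33, which ran from 0.02 without SMA 2 to 0.64 without WT 3. Vessel markers lay above 0 in 4 of 7 with a median of 0.16, and none passed. The groups were apart for 1 of them in each direction. Cldn5, a tight junction gene of endothelium, stood at 9.57, 10.33 and 11.05 in WT and 9.44, 9.27 and 8.74 in SMA (adjusted p = 0.297). Abcc9, a channel subunit gene of pericytes above background on 1 WT and 3 SMA arrays, stood at 4.56, 5.44 and 5.28 in WT and 5.91, 5.68 and 6.18 in SMA (adjusted p = 0.409). Among markers of the meninges and of fibroblasts, 1 of 7 passed, Ranbp3l, and Layn and Col8a1 were above background on 3 WT and 0 SMA arrays with adjusted p values of 0.101 and 0.129. The other 4 of these 7 lay above 0, with Fbln1 at 1.49 and Igf2 at 1.25. Only 3 of 20 ependymal cilia genes on the array were tested, of which 2 lay above 0, with differences of −0.96, 1.35 and 3.76. The one with the largest difference, Fam183b, above background on 1 WT and 3 SMA arrays, stood at 4.77, 7.20 and 4.53 in WT and at 8.91, 9.52 and 9.36 in SMA (adjusted p = 0.109). Bbox1, Ranbp3l, Layn and Col8a1 entered the test through WT alone, and Abcc9 and Fam183b through SMA alone. The directions of these genes were at least in part set by the detection filter.

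**Figure D4:**
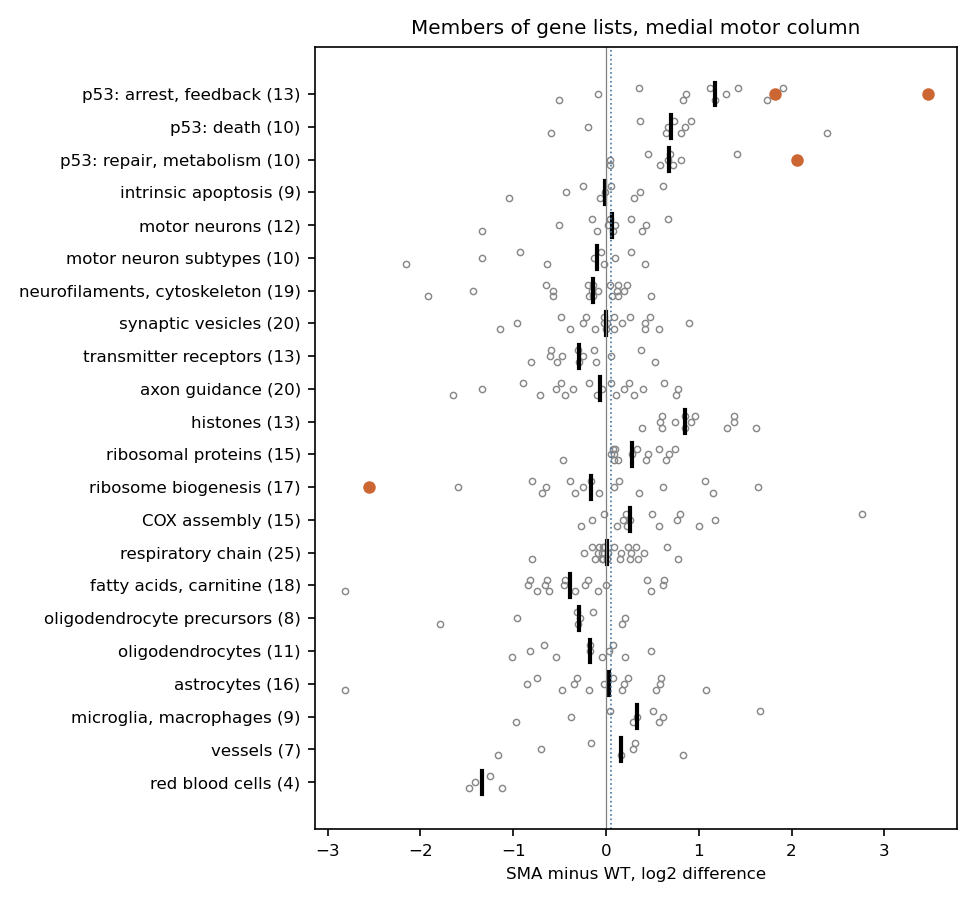
Log2 difference of SMA minus WT (x axis) for each tested member (points) of 22 gene lists, with the number of members tested in brackets, the list median as a black bar, members past the threshold filled and the median of all genes as a dotted line. The 3 p53 lists and the histones have medians from 0.68 to 1.18, the red blood cell genes one of −1.33, and most other lists lie near 0.

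Replication-dependent histone genes had differences above 0 in 13 of 13 members tested, with a median of 0.85, and none passed. Their mRNAs are processed by a small nuclear ribonucleoprotein of their own, the U7 particle. H1f2, a linker histone gene, stood at 8.29, 8.63 and 9.89 in WT and at 10.54, 10.02 and 10.39 in SMA. H2bc12 stood at 4.96, 7.95 and 7.65 in WT and at 8.73, 8.16 and 8.53 in SMA. The groups of both were apart, though WT 3 came close to SMA for the first gene and WT 1 was far below the other WT arrays for the second. H2bc12 was not above background on every MMC array and entered the test through SMA, so its direction was in part set by that filter. Their differences were 1.38 and 1.62, with adjusted p values of 0.261 and 0.485. The SMA arrays lay wholly above the WT arrays for 6 of the 13, where the share over all genes was 8.48%. The summed linear level was 2419 to 4888 in WT and 6485 to 6713 in SMA. Without WT 1, 11 of the 13 were above 0 and the median was 0.60. Probes of such near-identical genes can bind each other's transcripts, so single members are uncertain. The other genes of the cell cycle did not share this: 5 of 10 lay above 0 with a median of 0.05.

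Among the partners of SMN in building spliceosomal particles, Smn1 was the only gene of 12 tested to pass. The remaining 11 had differences from −0.31 to 1.04, and the median of the list was 0.08. Gemin4, a subunit of the SMN complex, differed by 1.04 (adjusted p = 0.696), and Gemin2, the nearest partner of SMN, by −0.12. The 5 genes of the minor spliceosome tested lay between −0.50 and 0.40.

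Genes of the translation and energy machinery were looked at in 5 lists, whose medians ran from −0.39 to 0.28. Ribosomal protein genes lay above 0 in 14 of 15 with a median of 0.28, and their summed linear level was 36538 to 43058 in WT and 43416 to 48641 in SMA, ranges that overlapped once Rps14 was left out. Rps14 stood at 11.99, 12.12 and 12.08 in WT and at 12.33, 12.49 and 12.37 in SMA, apart by genotype but with an adjusted p of 0.638. The median of the list was 0.14 without WT 1, 0.16 without WT 3 and 0.16 without SMA 2. Genes for assembling cytochrome c oxidase lay above 0 in 12 of 15 with a median of 0.26, with Coa4 the highest at 2.76 (adjusted p = 0.124), while the respiratory chain itself had 13 of 25 above 0 and a median of 0.01. Coa4 was not above background on every MMC array and entered the test through SMA, so its direction was in part set by that filter. Genes of fatty acid oxidation and carnitine lay below 0 in 14 of 18 with a median of −0.39, and no gene of these 4 lists passed. In the list of ribosome biogenesis, where Polr1a passed, 7 of 17 lay above 0 and 10 below, with a median of −0.16. Rrn3, an initiation factor gene of RNA polymerase I, differed by 1.15 (adjusted p = 0.230), Polr1e, another subunit gene, by 1.64 (adjusted p = 0.345) and Taf1a, a gene of its promoter factor SL1, by −1.60 (adjusted p = 0.311).

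Probes of a gene agreed in part. Of 13184 probes tested, 16 passed (0.121%), 11 of them with higher levels in SMA (0.0834%), and they belonged to 14 genes. Gtse1 and Ccng1 each had 2 passing probes. In Cryba1 and Plek2 only a probe other than the brightest passed. That of Cryba1 was at background on all SMA arrays and at least 5.30-fold lower there, and that of Plek2 was at background on all WT arrays and at least 3.12-fold higher in SMA. Among 4291 pairs of the probe used for a gene and another of its probes, 60.5% had the same direction, and Pearson's r of their differences across pairs was 0.26. Where the probe used had an unadjusted p under 0.05, 68.4% of 339 pairs had the same direction, and the median absolute difference was 1.19 for the probe used and 0.585 for the other probe. Where its p was over 0.5, the share was 55.3% of 1945 pairs. For the 4 genes past the threshold with further probes, all 8 pairs agreed in direction. Probes were chosen as the brightest over the 24 arrays, and pairs share their RNA and arrays, so these are descriptions.

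**Figure D5:**
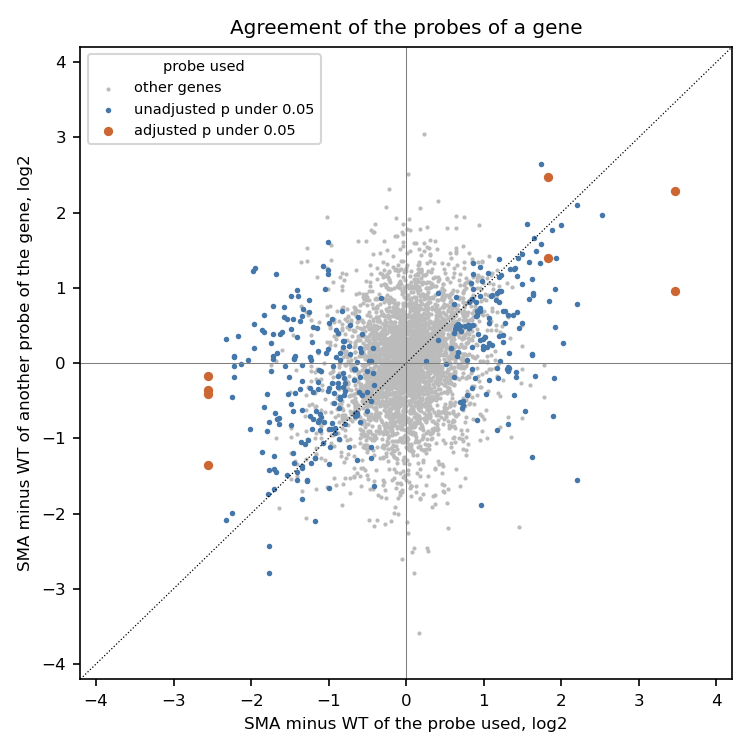
Log2 difference of SMA minus WT of the probe used for each gene (x axis) against that of another probe of the same gene (y axis), for 4291 pairs, with equality as a dotted line. Pairs whose probe used passed the threshold (8 pairs, 4 genes) lie in the quadrants of equal sign, and the cloud as a whole is round, with r = 0.26.

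The LMC, the other motor column, was the nearest comparison, but not an even one. On the array SMA LMC 2 only 33.7% of probes were above background, and its mean correlation with its group was 0.826. The astrocyte gene Gfap stood at 10.77 in WT MMC against 7.36 in WT LMC, and the myelin gene Mbp at 11.32 against 8.44. The microglia gene Aif1 stood at 7.08 against 7.57. The difference of the genotype effects, MMC minus LMC, passed in 0 of the 8770 genes (0%) with limma, against 532 (6.07%) at an unadjusted p under 0.05, and in 4 genes with a common spread. A difference between the columns was therefore not shown for any gene named above. Crip2 differed by 1.83 in MMC and by 1.67 in LMC, Gtse1 by 3.47 and 1.71, and Ccng1 by 1.83 and 0.68. Cdkn1a differed by 1.74 and 0.91 and Perp by 2.38 and 1.01. Standard errors of the LMC values were 0.260 for Crip2, 0.564 for Gtse1, 0.316 for Ccng1 and 0.516 for Perp. Chodl and Mmp9 differed by −1.34 and −2.16 in MMC and by 0.01 and 0.14 in LMC. Ranbp3l, at background in SMA MMC, differed by 1.22 in LMC, with 4 LMC arrays above background.

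Against the mean of the other 3 tissues, the genotype effect in MMC passed the test of a difference for 5 genes (0.057%): Padi1, Dennd3, Tcea3, Ranbp3l and Polr1a. For Dennd3 and Tcea3 this is no measured difference between tissues, since both entered the test through SMA MMC and had no signal in most other samples. Padi1 also entered the test through SMA MMC alone, with 2 of the 3 WT MMC arrays above background. Its high level in SMA MMC was thus part of how it was chosen. Against 4.13 in MMC, Padi1 differed by 0.91 in LMC, by −0.27 in DRG and by −0.34 in raphe samples. Dennd3 was above background on 0 LMC arrays, 0 DRG arrays and 1 raphe array and Tcea3 on 0 LMC, 0 DRG and 4 raphe arrays, so that their differences there were set by the background. Ranbp3l was above background on 4 LMC, 3 DRG and 4 raphe arrays. Polr1a was above background on all 18 other arrays, with differences of 0.24, 0.83 and 0.17. With a common spread 15 genes passed this test.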

How the data were processed

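Gene expression was measured on 24 arrays, with groups and array numbers read off the titles. The deposited table holds, per the file headers, an intensity column and a detection p-value column for every array. Of tools, the submitters' processing notes name GenomeStudio, without a version. Log2 values that the authors had normalized were deposited too, with no method given in the sources used here. These served as an alternative. Their scale and direction were read from the intensities of the same arrays, and how they were centred is unknown (column medians 7.54 to 7.57).

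Of 45281 probes, 34885 had 1 gene symbol in the platform annotation, 18 several and 10378 none. The 2586 detected probes without a symbol were not tested. Gene numbers of 34807 probes matched the RefSeq gene table of GRCm38.p6. Signals were corrected with limma 3.58.1 in R 4.3.3 (normexp with control statistics inferred from detection p-values, offset 16), quantile-normalized over the 24 arrays and put on a log2 scale. For each gene the brightest probe over the 24 arrays was used. The linear model had a mean for each of the 8 groups and weights estimated per tissue, because the MMC arrays varied more. The spread of a gene was drawn from all 8 groups, also from those where it had no signal. Contrasts used limma's moderated statistics with a trend, two-sided, with Benjamini-Hochberg adjustment over all genes tested and a threshold of 0.05. The script was tested on simulated data. The number of arrays limits the precision, and p-values measure the spread between these samples.

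The deviations of arrays with the same number had correlations of −0.09, −0.04 and 0.01, so the numbers were not taken to pair the samples. Gene lists were described by counts and medians only. Genes are named by rule: Smn1, the genes that passed, the 12 genes of smallest p in each direction among those above background on all 6 arrays without overlap, the leading members of each list, genes with 2 passing probes, Chat, Cdkn1a, Mdm2 and Ccng1. Other members and probes named were chosen after their values were seen, as were Cdh1 and Ank2. The members, lists and tests were chosen with earlier results of these data known.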

Additional observations from a re-analysis of the deposited data

Results flagged for a closer look

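The genotype effect in the MMC differed from the mean effect in LMC, DRG and raphe for 5 genes, by a test of that difference itself (limma, adjusted over 8770 genes). Padi1 had a difference of 4.03 (SE 0.556, adjusted p = 0.00177) and Dennd3 one of 2.20 (SE 0.322, adjusted p = 0.00243). Tcea3 followed at 2.66 (SE 0.463, adjusted p = 0.0154). Ranbp3l had −4.30 (SE 0.742, adjusted p = 0.0154) and Polr1a −2.97 (SE 0.553, adjusted p = 0.0317). Dennd3 and Tcea3 were at background on all WT MMC arrays and all LMC and DRG arrays and entered the test through SMA MMC. Their values restate the MMC result and do not measure a difference between tissues. The standard errors of Dennd3 and Tcea3 also draw on these background arrays. Padi1, too, entered through SMA MMC alone, with 2 of the 3 WT MMC arrays above background, so its high SMA level was part of how it was chosen. Ranbp3l and Polr1a entered through WT MMC alone and were at background on all SMA MMC arrays. The size of their values thus also rests on background levels. The value of Polr1a further rests on 1 probe, since the probe brightest in the MMC differed there by only −0.35. Against the LMC alone the adjusted p values of the same 5 genes, in this order, were 0.209, 0.0903, 0.162, 0.0738 and 0.505. Each tissue lay on its own chip, so tissue and chip cannot be told apart.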

How the results depend on the processing

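The count of genes past the threshold in the MMC, 12 in the model used, was 142 without array weights, 58 with a weight for each array, 5 with the 6 MMC arrays alone, 5 with quantile normalization over those arrays, 19 with the authors' normalized values, 19 with an offset of 50 and 3 among genes above background on all 6 arrays. It ran from 13 to 28 when 1 array was left out and the detection rule was applied anew to the others. The other settings, from median scaling to robust moderation, gave 8 to 15 genes. With array numbers as a block 8 genes passed, 4 higher and 4 lower, 7 of them among the 12. The probe count of 16 was 197 without array weights and 4 on all 6 arrays. Without array weights the MMC minus LMC count of 0 was 4 and the count of 5 against the other tissues was 15. Smn1 and Padi1 passed under every setting run that tested them, and the other 10 lost their call under at least 2. Of 86 genes followed, 83 kept their direction throughout. The exceptions were Chat (−0.55 with a weight for each array, −0.022 with the authors' values, −0.37 to 0.58 when 1 array was left out, and below 0 without WT 1, WT 3, SMA 2 or SMA 3), and Dph3 (0.088) and Dgkk (0.32) with the probe of highest MMC mean. The cause of these changes was not tested, except that the filter on 6 arrays removes Smn1 and other genes at background in 1 genotype. Scaling moved the median of all genes to between 0.02 and 0.10. With 3 arrays a group and a median standard error of 0.467, differences of the size seen in most lists were not detectable gene by gene, and genes of low signal are limited by the background.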
